A study of Mus musculus with 12 samples.

Results

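Marker genes of macrophages were examined in mouse quadriceps. The 10 genes were Csf1r, Emr1, Cd68, Lyz2, Mrc1 and Cd163, which mark macrophages broadly or in their tissue-resident state, and Gpnmb, Spp1, Lgals3 and Trem2, which mark macrophages loaded with lipid or undegraded lysosomal material. They were chosen by gene name, and 10 of 10 were found among the 15344 genes of the expression tables. Bulk RNA of quadriceps was sequenced from 12 C57BL/6 mice aged 6 months, 4 in each of 3 groups, and the methods of the study describe the treated mice as male. The WT mice were untreated. The KO mice lacked acid alpha-glucosidase (genotype GAA Knock-out), the lysosomal enzyme that degrades glycogen and is missing in Pompe disease, and were injected with PBS. The AAV mice were GAA Knock-out mice that received the vector AAV2/8-LSPhGAApA by tail vein at 2 months of age, at 2e12 vg/kg, and were examined 4 months later. The vector carries human GAA behind a liver-specific promoter, so that its transgene is meant to be made in liver and not in the muscle or the macrophages measured here. The comparisons ask which macrophage transcripts differ with the missing enzyme and which differ after the vector.

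Macrophages of muscle clear debris and steer repair, and they arise from resident cells and from blood monocytes. Their survival needs signals through the receptor encoded by Csf1r. When lysosomes fill with material that cannot be degraded, macrophages are known to raise a programme that includes GPNMB, a transmembrane glycoprotein, galectin-3, a lectin that binds damaged lysosomes, and TREM2, a lipid-sensing receptor that signals through the adaptor TYROBP. In bulk muscle, fewer macrophages and less RNA of a gene per macrophage cannot be told apart.

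Gaa RNA was higher in the libraries labelled KO than in most of those labelled WT or AAV. Gaa, the targeted gene (chromosome 11, 119267887 to 119285454, + strand, GRCm38), had normalized counts of 343, 14640, 324 and 460 in WT 1 to 4, of 12151, 13075, 11936 and 12895 in KO 1 to 4, and of 947, 587, 499.6 and 9854 in AAV 1 to 4. It was thus high in every library labelled KO, in WT 2 and in AAV 4, and low in the other WT and AAV libraries. In KO against WT its log2 fold change was 3.75 (SE 1.03, adjusted p = 0.025, limma, Benjamini-Hochberg). That call held in 8 of 16 alternative fits, and edgeR gave 1.66 (adjusted p = 0.290, Benjamini-Hochberg). In AAV against KO, the alternative fits gave Gaa values from -4.26 to -2.08. For this reason the groups are called the libraries labelled WT, KO and AAV, and each direction is one between labels. Depth lay between 22122233 and 47379737 reads per library and differed by group. It was 32299356 to 47379737 in WT, 31225360 to 40846896 in KO and 22122233 to 31974197 in AAV. Every AAV library was thus shallower than every WT library. Fibre genes identified the tissue as muscle, with the summed normalized counts of 8 of them between 3866200 and 6595130.

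The DNA before some of the members is shown first, as a description. The factor PU.1, which macrophages use to switch on their genes, binds around GAGGAA, or TTCCTC on the other strand. Both spellings were searched in the 250 bases before the RefSeq start (GRCm38.p6), and 8 of the 10 members matched an entry. These 8 members had 9 windows, since Spp1 has 2 starts in that table. The letters stood in 4 of the 9 windows, those of Cd68, Mrc1 and Trem2 and one of Spp1, against 23.3% of 32851 promoter windows of the same length. They were not found in the other Spp1 window or in those of Lyz2, Cd163, Gpnmb and Lgals3. CACGTG, the E-box core bound by TFEB, TFE3 and MITF, the regulators of lysosomal genes, stood in 0 of the 9 and in 6.02% of all windows. The windows of Trem2 (chr17:48346151-48346400, + strand), Cd68 (chr11:69666171-69666420, - strand) and Mrc1 (chr2:14229164-14229413, + strand) are printed 5′ to 3′ with the PU.1 letters in capitals, since they set the member with the steepest difference, a member with a steep difference and a member with little difference side by side.
Trem2: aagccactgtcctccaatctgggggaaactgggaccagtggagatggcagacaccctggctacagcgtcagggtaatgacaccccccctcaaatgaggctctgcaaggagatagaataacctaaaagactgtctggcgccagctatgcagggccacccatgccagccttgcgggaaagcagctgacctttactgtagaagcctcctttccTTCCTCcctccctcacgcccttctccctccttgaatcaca
Cd68: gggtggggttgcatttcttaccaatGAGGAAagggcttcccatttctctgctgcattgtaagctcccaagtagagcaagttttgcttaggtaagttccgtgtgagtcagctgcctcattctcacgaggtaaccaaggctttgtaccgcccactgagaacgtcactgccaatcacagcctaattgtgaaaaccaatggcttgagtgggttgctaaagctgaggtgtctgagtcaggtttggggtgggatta
Mrc1: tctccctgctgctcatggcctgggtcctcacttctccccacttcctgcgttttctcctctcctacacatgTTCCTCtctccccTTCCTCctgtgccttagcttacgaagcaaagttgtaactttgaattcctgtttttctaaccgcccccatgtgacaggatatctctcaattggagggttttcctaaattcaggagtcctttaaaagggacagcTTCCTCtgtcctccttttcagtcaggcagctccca
The match of Trem2 began 40 bases before the start and that of Cd68 began 225 bases before it, whereas Mrc1 had 3 matches, at 180, 167 and 35 bases. These matches are descriptions of letters, and binding was not measured.

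Between the libraries labelled KO and WT, the macrophage markers were mostly lower in KO, most steeply Trem2, Lgals3 and Cd68. Of the 10 members, 8 passed an adjusted p of 0.05 (limma on log2(normalized count + 1), Benjamini-Hochberg over 14859 genes), 7 lower and 1 higher in KO. In the same comparison 27.6% of all genes tested passed, 15.3% lower and 12.3% higher. The median log2 fold change of the members was -1.66, beside 0.02 for all genes tested. The exception in direction was Cd163, and Csf1r and Mrc1 did not pass.

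**Figure D1:**
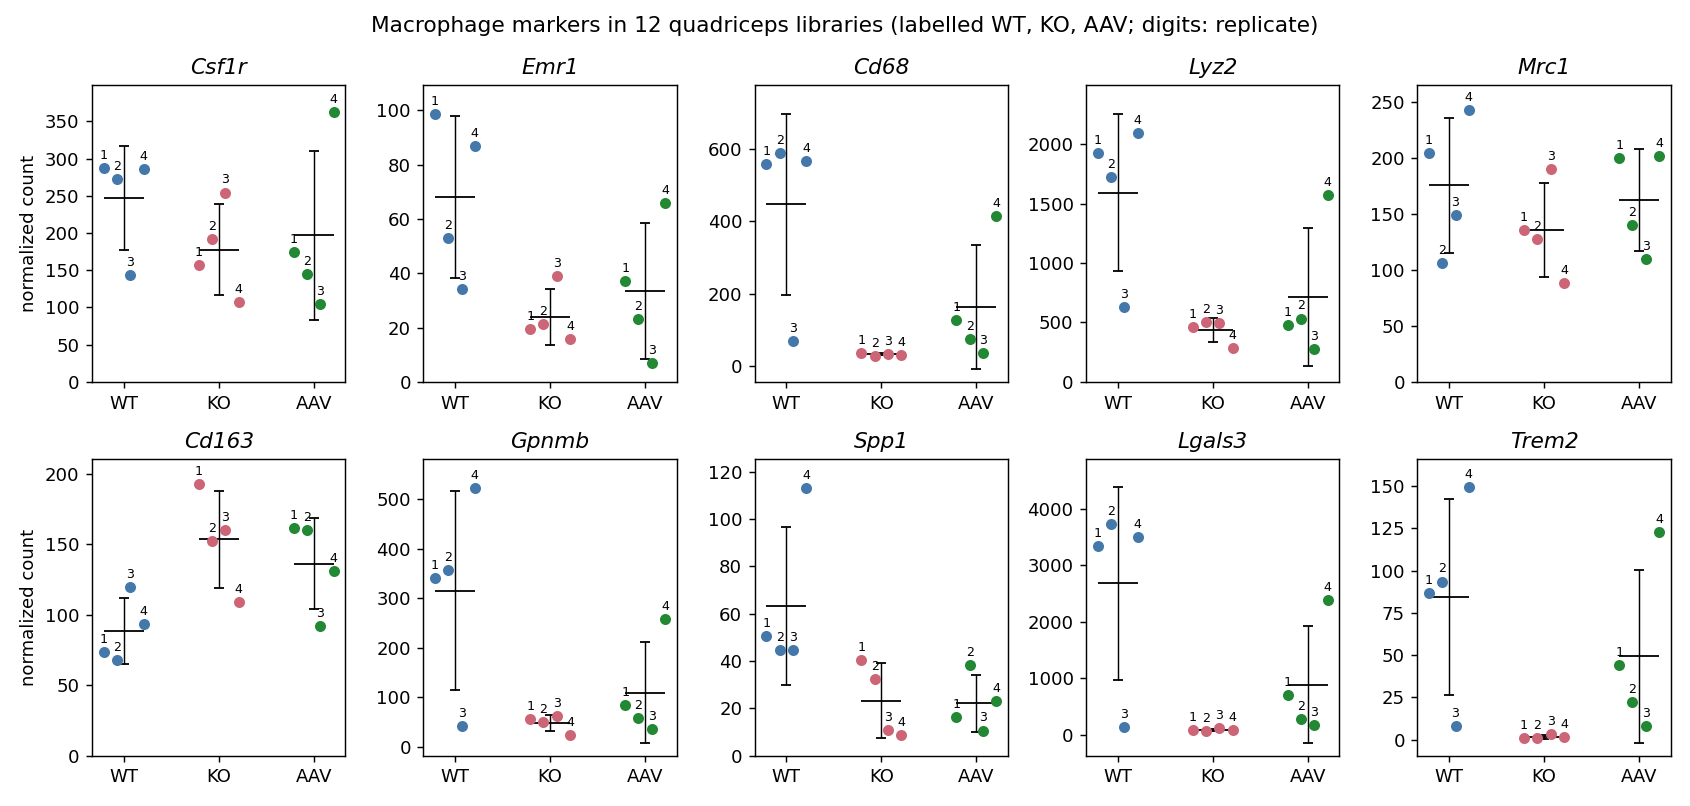
Normalized count (vertical axis) of each macrophage marker in the libraries labelled WT, KO and AAV (horizontal axis). Each point is a library with its replicate number, the black bar is the group mean and the error bar is the SD (n = 4). In Lgals3, Cd68 and Trem2, WT 1, 2 and 4 and AAV 4 lie far above the rest.

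Trem2 (ENSMUSG00000023992, chromosome 17, 48346401 to 48354147, + strand, GRCm38, protein coding) had normalized counts of 86.9, 93.5, 8.12 and 149 in WT 1 to 4. In KO 1 to 4 only 1, 1, 3 and 2 reads were counted. Every library labelled WT lay above every library labelled KO, although WT 3 stood close to them. The summed reads, 347 and 7, gave a ratio of 49.0 after scaling, with a 95% counting interval of 23.5 to 123 that covers counting error only. The fitted log2 fold change was -4.50 (SE 0.78, adjusted p = 0.0043, limma, Benjamini-Hochberg), and -5.39 without WT 3.

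Lgals3, the gene of galectin-3 (ENSMUSG00000050335, chromosome 14, 47367751 to 47386160, + strand), had 3348, 3733, 138 and 3500 normalized counts in WT 1 to 4. The libraries labelled KO held 80.2, 67.6, 112 and 91.1. WT 3 was again far below the other libraries labelled WT and just above the highest library labelled KO. The means were 2680 ± 1702 and 87.7 ± 18.8 (SD, n = 4), and the log2 fold change was -4.17 (SE 0.92, adjusted p = 0.011, limma, Benjamini-Hochberg). Without WT 3 it was -5.34 (adjusted p = 9.2e-08, limma, Benjamini-Hochberg).

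Cd68, whose product is a glycoprotein of macrophage lysosomes (ENSMUSG00000018774, chromosome 11, 69664213 to 69666153, - strand), followed the same libraries. It stood at 560, 590, 69.8 and 568 normalized counts in WT 1 to 4 and at 36.7, 28.2, 33.7 and 30.9 in KO 1 to 4. The libraries labelled KO varied little, with a coefficient of variation of 11.3%, against 56.3% in those labelled WT. The groups did not overlap, and the log2 fold change was -3.35 (SE 0.60, adjusted p = 0.0051, limma, Benjamini-Hochberg). Without WT 3 the Cd68 value was -4.11 (adjusted p = 1.7e-07, limma, Benjamini-Hochberg).

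Gpnmb (ENSMUSG00000029816, chromosome 6, 49036546 to 49070929, + strand) had 340, 356, 41.4 and 523 normalized counts in WT 1 to 4 and 57.0, 49.6, 62.0 and 23.9 in KO 1 to 4. Here WT 3 fell inside the range of the libraries labelled KO, so that the groups overlapped. The log2 fold change was -2.30 (SE 0.69, adjusted p = 0.034, limma, Benjamini-Hochberg). It did not pass in 8 of 16 alternative fits, in which the adjusted p reached 0.097 (limma, Benjamini-Hochberg), whereas without WT 3 it was -3.11 (adjusted p = 5.4e-05, limma, Benjamini-Hochberg).

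Spp1, the gene of the secreted matrix protein osteopontin (ENSMUSG00000029304, chromosome 5, 104435118 to 104441050, + strand), was carried by few reads. Normalized counts were 50.7, 44.6, 44.6 and 113 in WT 1 to 4 and 40.6, 32.5, 10.9 and 8.84 in KO 1 to 4. Unlike the other storage markers, Spp1 was not low in WT 3, and it was highest in WT 4 alone. The groups did not overlap, with a log2 fold change of -1.56 (SE 0.51, adjusted p = 0.046, limma, Benjamini-Hochberg). The call was lost in 8 of 16 alternative fits, among them edgeR on recovered reads (adjusted p = 0.065, Benjamini-Hochberg).

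Among the broad markers, Lyz2, which encodes lysozyme of macrophages and neutrophils (ENSMUSG00000069516, chromosome 10, 117277331 to 117282321, - strand), was the most abundant. Its normalized counts were 1923, 1721, 634 and 2097 in WT 1 to 4 and 465, 505, 493 and 286 in KO 1 to 4, with no overlap. The log2 fold change was -1.76 (SE 0.36, adjusted p = 0.0081, limma, Benjamini-Hochberg). The value is uncertain because the neighbouring copy Lyz1 matches the Lyz2 transcript at 95.8% identity and reads can be shared. Lyz1 had a mean normalized count of 88.7 in WT and 49.0 in KO, with a log2 fold change of -0.77 (adjusted p = 0.151, limma, Benjamini-Hochberg).

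Emr1, now named Adgre1 and known as the surface antigen F4/80 (ENSMUSG00000004730, chromosome 17, 57358691 to 57483527, + strand), had 98.6, 53.2, 34.1 and 86.8 normalized counts in WT 1 to 4. In KO 1 to 4 it had 19.3, 21.4, 39.2 and 15.9, and KO 3 was above WT 3. The log2 fold change of -1.44 passed (SE 0.39, adjusted p = 0.023, limma, Benjamini-Hochberg), as it did in 9 of 16 alternative fits. Its adjusted p reached 0.071 when all 12 libraries were fitted together (limma, Benjamini-Hochberg).

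Csf1r, the receptor of the growth factors CSF-1 and IL-34 (ENSMUSG00000024621, chromosome 18, 61100598 to 61132149, + strand), differed less. Normalized counts were 287, 272, 144 and 287 in WT 1 to 4 and 157, 192, 255 and 108 in KO 1 to 4. KO 1, KO 2 and KO 3 lay inside the range of the libraries labelled WT, and WT 3 lay inside that of the libraries labelled KO. The log2 fold change was -0.49 (SE 0.30, adjusted p = 0.241, limma, Benjamini-Hochberg), and only without WT 3 did it pass, at -0.73 (adjusted p = 0.034, limma, Benjamini-Hochberg). Csf1r overlaps Hmgxb3 on the opposite strand, and whether the counting used strand is not given in the sources used here.

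The scavenging receptors departed from this order. Mrc1, the mannose receptor of alternatively activated macrophages (ENSMUSG00000026712, chromosome 2, 14229392 to 14332057, + strand), had 205, 106, 149 and 243 normalized counts in WT 1 to 4 and 136, 127, 190 and 88.4 in KO 1 to 4. WT 2, among the highest 4 libraries for 8 members, was low for Mrc1, and the groups overlapped widely. The log2 fold change was -0.36 (SE 0.30, adjusted p = 0.384, limma, Benjamini-Hochberg), and it passed in 0 of 16 alternative fits. Cd163, the receptor that takes up haemoglobin bound to haptoglobin (ENSMUSG00000008845, chromosome 6, 124304656 to 124330527, + strand), had 73.3, 68.0, 119 and 93.6 normalized counts in WT 1 to 4 and 192, 152, 160 and 109 in KO 1 to 4. KO 4 and WT 3 crossed, and the other libraries labelled KO lay above every library labelled WT. Cd163 rose by 0.79 on the log2 scale (SE 0.24, adjusted p = 0.034, limma, Benjamini-Hochberg). It passed in 9 of 16 alternative fits, and its adjusted p reached 0.101 without KO 1 (limma, Benjamini-Hochberg).

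Across the members, 5 of 10 had groups that did not overlap, Cd68, Lyz2, Spp1, Lgals3 and Trem2, against 28.3% of all genes tested. The number of members that passed was 4 without WT 1, WT 4 or KO 2 and with the replicate block, 5 without KO 1, KO 3, KO 4 or WT 2, the library labelled WT with high Gaa, and 9 without WT 3. Cd68, Lyz2, Lgals3 and Trem2 passed in 16 of 16 alternative fits.

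**Figure D2:**
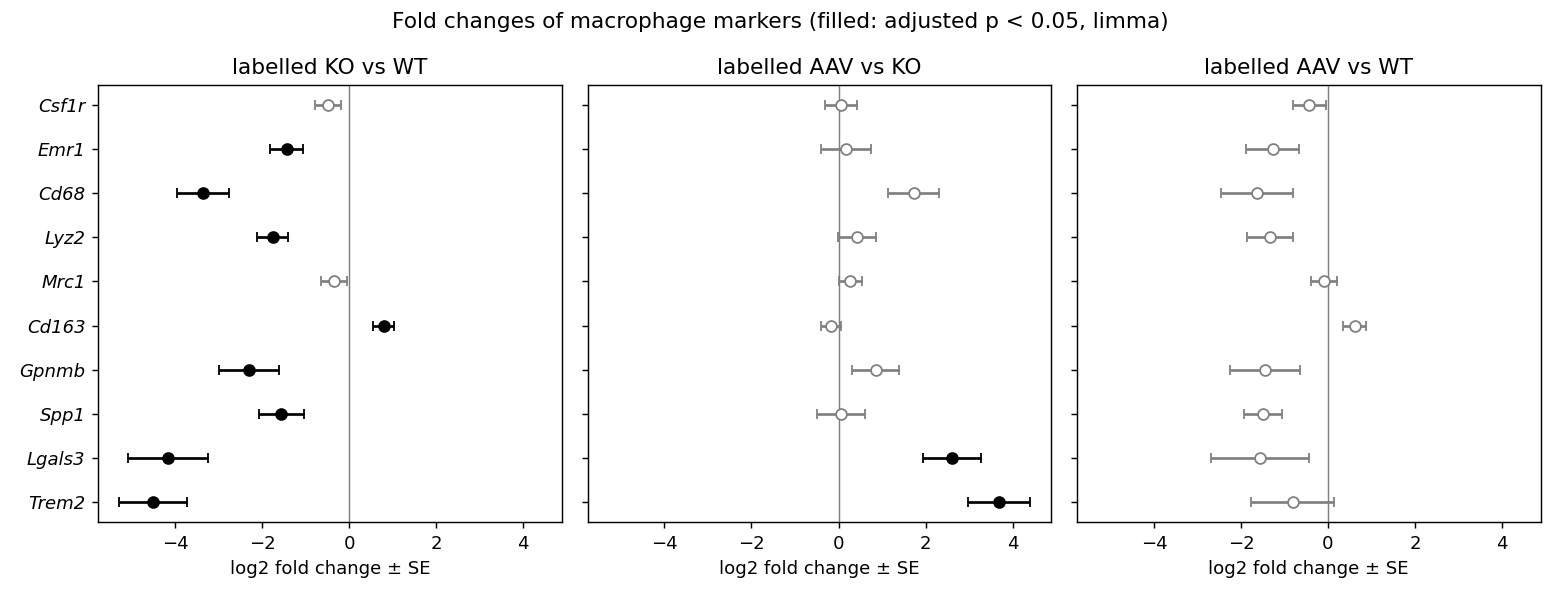
Log2 fold change of each macrophage marker (horizontal axis, with its SE as error bar) in the 3 comparisons, from limma on log2(normalized count + 1). Filled points had an adjusted p under 0.05. Of the 10 members, 8 are filled for KO against WT, 2 for AAV against KO and 0 for AAV against WT.

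In AAV against KO, Trem2 and Lgals3 were higher in the libraries labelled AAV and the remaining markers did not pass. Thus 2 of 10 members passed (limma, Benjamini-Hochberg over 14894 genes), both higher in AAV, where 12.8% of all genes tested passed in that direction and 26.3% in either. The median log2 fold change of the members was 0.35, beside 0.04 for all genes tested. The same libraries labelled KO entered this comparison and the one with WT.

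Trem2 had 44.1, 22.1, 8.27 and 123 normalized counts in AAV 1 to 4, each above the 4 libraries labelled KO. The summed reads, 195 and 7, gave a ratio of 32.4 after scaling (95% counting interval 15.4 to 81.7). AAV 4 supplied 134 of the 195 reads, and the interval does not cover this difference between libraries. The log2 fold change was 3.69 (SE 0.71, adjusted p = 0.0081, limma, Benjamini-Hochberg). Without AAV 4, the highest of these libraries and the AAV library with high Gaa, it was 3.06 (adjusted p = 0.010, limma, Benjamini-Hochberg), and it passed in 16 of 16 alternative fits.

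Lgals3 had 702, 288, 167 and 2392 normalized counts in AAV 1 to 4, a mean of 887 ± 1029 (SD, n = 4), and again no library overlapped with those labelled KO. In this comparison 30.6% of all genes tested had no overlap, 14.8% higher and 15.8% lower in AAV. It rose by 2.61 on the log2 scale (SE 0.67, adjusted p = 0.020, limma, Benjamini-Hochberg). The call held without AAV 4, at 1.89 (adjusted p = 0.015, limma, Benjamini-Hochberg), but in all it held in 11 of 16 alternative fits. The adjusted p reached 0.078 with all 12 libraries in the fit (limma, Benjamini-Hochberg).

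Cd68 and Gpnmb had the same order among the AAV libraries but did not pass. Cd68 stood at 127, 74.5, 35.4 and 415 normalized counts in AAV 1 to 4, and only AAV 3 lay within the KO range. Its log2 fold change was 1.73 (SE 0.60, adjusted p = 0.056, limma, Benjamini-Hochberg), and it passed in 3 of 16 alternative fits, among them edgeR (adjusted p = 0.027, Benjamini-Hochberg). Gpnmb had 85.4, 57.4, 36.6 and 259 normalized counts in AAV 1 to 4, with a log2 fold change of 0.86 (SE 0.54, adjusted p = 0.254, limma, Benjamini-Hochberg). Without AAV 4 the Cd68 value was 1.09 and the Gpnmb value was 0.31.

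For Lyz2, Emr1 and Csf1r, the sign of the difference turned without AAV 4. Lyz2 had 475, 534, 274 and 1572 normalized counts in AAV 1 to 4, Emr1 had 37.2, 23.2, 7.09 and 66.1, and Csf1r had 175, 145, 105 and 362. In each of the 3 genes AAV 4 was the highest of the AAV libraries and AAV 3 the lowest. Their log2 fold changes were 0.43, 0.17 and 0.06, and without AAV 4 they were -0.05, -0.27 and -0.29. Csf1r also turned without KO 4, at -0.16, and Emr1 was near 0 without AAV 1. The lowest adjusted p among the 3 genes was 0.483 (limma, Benjamini-Hochberg).

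Mrc1, Cd163 and Spp1 varied within the AAV libraries without a shift that passed. Normalized counts in AAV 1 to 4 were 199.8, 139.9, 109.8 and 202 for Mrc1. For Cd163 they were 161, 160, 92.1 and 131, and for Spp1 16.5, 38.3, 10.6 and 22.9. All 3 genes overlapped with the libraries labelled KO, with log2 fold changes of 0.27 (Mrc1), -0.18 (Cd163) and 0.06 (Spp1) and a lowest adjusted p of 0.468 (limma, Benjamini-Hochberg).

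In AAV against WT, 0 of 10 members passed by limma with Benjamini-Hochberg adjustment over 14939 genes, where 1.29% of all genes passed, 0.951% higher and 0.341% lower in AAV. At an unadjusted p under 0.05 there were 3 members, DESeq2 on recovered reads called 1, and edgeR called 0. The lowest adjusted p was that of Spp1, which was lower in AAV by a log2 fold change of -1.50 (SE 0.44, adjusted p = 0.127, limma, Benjamini-Hochberg). Spp1 was also the only member whose groups did not overlap, against 11.7% of all genes tested (6.69% higher and 4.97% lower in AAV), and DESeq2 gave it an adjusted p of 0.037 (Benjamini-Hochberg). For the other members the log2 fold changes were -1.63 (Cd68), -1.56 (Lgals3), -1.44 (Gpnmb), -1.33 (Lyz2), -1.26 (Emr1), -0.81 (Trem2), -0.43 (Csf1r), -0.09 (Mrc1) and 0.62 (Cd163), all on limma's scale. The SE of Lgals3 was 1.13 and that of Trem2 0.96, so these intervals were wide. With a library left out, Lgals3 ran from -2.72 to -0.999 and Cd68 from -2.38 to -1.10. Gpnmb ran from -2.25 to -1.04 and Trem2 from -1.70 to -0.20, and the lowest value of each of these genes was the one without WT 3. Without WT 3 the lowest adjusted p of any member was 0.058, for Gpnmb, and without both WT 2 and AAV 4 it was 0.208, for Lyz2 (limma, Benjamini-Hochberg).

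The same libraries were high for most members. In 7 of the 10 members, Csf1r, Emr1, Cd68, Lyz2, Gpnmb, Lgals3 and Trem2, the highest 4 of the 12 libraries were WT 1, WT 2, WT 4 and AAV 4. Of the genes that reached a normalized count of 10 somewhere, 8.98% had these 4 libraries highest, a pattern chosen after the values were seen. In Lgals3 and Trem2 the next in order were AAV 1, AAV 2 and AAV 3, then WT 3, and the libraries labelled KO came last. KO 4 was among the lowest 4 libraries for 9 members and AAV 3 for 8. Of the 4 highest libraries, AAV 4 and WT 2 carried high Gaa and WT 1 and WT 4 did not. The libraries labelled KO, all with high Gaa, were the lowest for Lgals3 and Trem2. A relation of the members to Gaa was not tested.

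**Figure D3:**
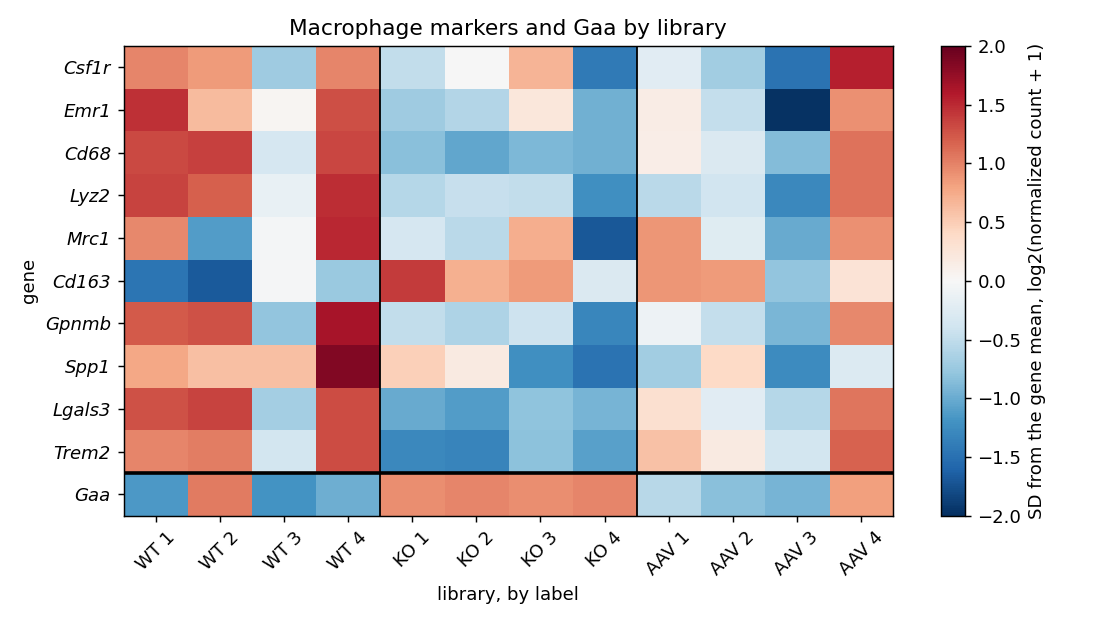
Level of each macrophage marker and of Gaa (rows) in the 12 libraries (columns, by label), as SD from the gene's mean of log2(normalized count + 1). Red is high and blue is low. WT 1, 2 and 4 and AAV 4 are red for 7 of the 10 members, and Gaa, below the line, is red in KO 1 to 4, WT 2 and AAV 4.

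Per read of Csf1r in the same library, 5 of the other 9 members, Emr1, Cd68, Lyz2, Lgals3 and Trem2, were lower in KO than in WT without overlap, and 0 were higher. Of all other genes tested in this comparison, 4.07% were lower and 5.42% higher in this ratio without overlap. Lgals3 had 11.7, 13.7, 0.96 and 12.2 reads for each Csf1r read in WT 1 to 4, from 0.353 to 0.844 in the libraries labelled KO and from 1.58 to 6.60 in those labelled AAV. The lowest WT ratio was above the highest KO ratio. Trem2 had from 0.056 to 0.520 reads per Csf1r read in the libraries labelled WT, from 0.0045 to 0.0164 in those labelled KO and from 0.079 to 0.339 in those labelled AAV. For Mrc1 the medians of this ratio were 0.780 (WT), 0.784 (KO) and 1.01 (AAV). Cd163 had medians of 0.291 (WT), 0.901 (KO) and 0.899 (AAV) reads per Csf1r read. These ratios describe the libraries and were not tested.

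Per length, the order of the members' levels differed between groups. In normalized counts per kb of exon, the means in the libraries labelled WT were 1442 for Lgals3, 1211 for Lyz2 and 356 for Cd68, with overlap between Lgals3 and Lyz2, and the other 7 members lay between 16.2 (Cd163) and 48.4 (Gpnmb). In the libraries labelled KO, Lyz2 came first at 332, followed by Lgals3 at 47.2, and Trem2 was last at 0.346. Cd163, the lowest member in WT, was the fourth in KO at 28.1 per kb, close to Csf1r at 30.8 and Cd68 at 25.8, and the ranges of these 3 genes overlapped. In the libraries labelled AAV, Lyz2 (542) and Lgals3 (477) overlapped, and the lowest means were those of Emr1 (10.3) and Trem2 (9.98), which overlapped as well.

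**Figure D4:**
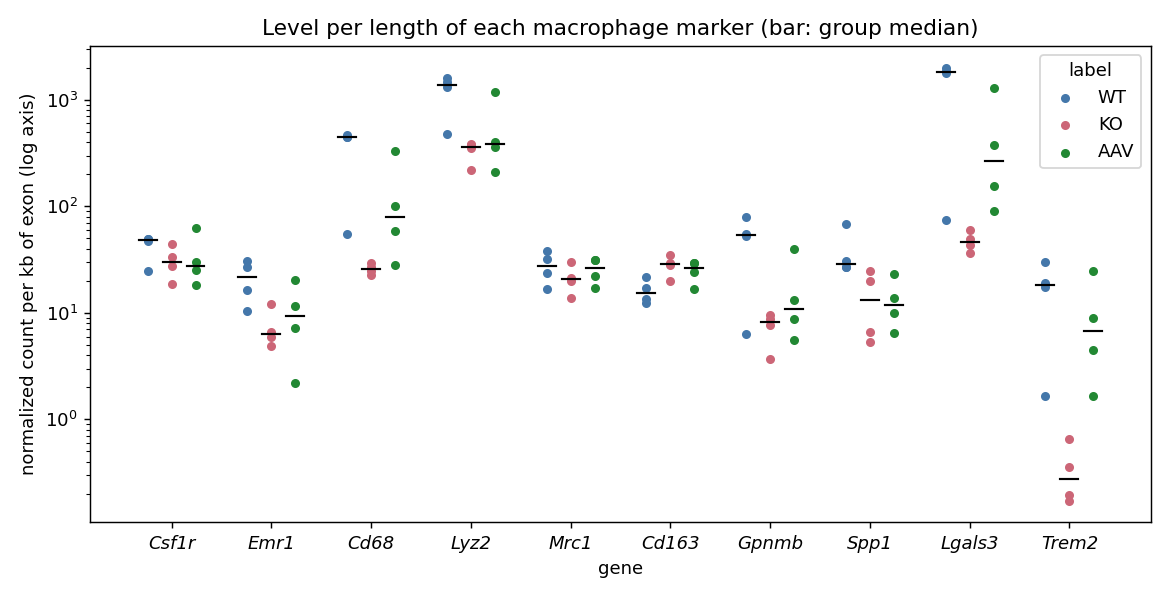
Normalized count per kb of exon (vertical log axis) of each macrophage marker (horizontal axis) in the libraries labelled WT, KO and AAV. Points are libraries and bars are group medians. Lgals3, Lyz2 and Cd68 are the highest in WT, and Trem2 in KO is the lowest of all.

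Over the 12 libraries, which share group and library effects, the members' levels on the log2 scale ran together to different degrees. With the mean scaled level of the other storage markers, Pearson's r was 0.93 for Gpnmb, 0.92 for Lgals3, 0.86 for Trem2 and 0.56 for Spp1. Cd68 (0.97) and Lyz2 (0.95), chosen as broad markers, followed the storage markers more closely than they followed the other broad markers (0.69 and 0.81). For Csf1r and Emr1 the order was the reverse, with 0.88 and 0.91 for the broad markers and 0.75 and 0.83 for the storage markers. Cd163 had negative values with both, r of -0.35 (broad) and -0.54 (storage), and weaker ones by rank, with Spearman's rho of -0.28 and -0.32. These values were not tested. Of 12557 genes with a mean of at least 20, the nearest to the broad mean were Rac2 (r = 0.95), Ccl9 (0.95) and Tmem71 (0.94). Nearest to the storage mean were Ezr (0.98), Pam (0.98), Pgm5 (0.98) and the endotoxin co-receptor Cd14 (0.98), and Tlr2 (0.97) was also among the first 8.

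The partners of the members were measured too, and their directions differed. Of 13 tested, 5 were lower and 1 higher in KO than in WT (limma, Benjamini-Hochberg, adjusted p of 0.05), with a median log2 fold change of -0.28, where 15.3% of all genes tested were lower and 12.3% higher. With a library left out the count ran from 1 (without KO 4) to 7 (without WT 3). Tyrobp, the adaptor of TREM2, fell by 1.92 on the log2 scale (SE 0.49, adjusted p = 0.019, limma, Benjamini-Hochberg). Its means were 114 ± 56.3 in WT and 27.2 ± 12.1 in KO (normalized counts, SD, n = 4). Cd44, a receptor of osteopontin, had a log2 fold change of -1.36 (adjusted p = 0.025), and the integrin subunits Itgb1, Itga9 and Itgav, which also bind it, had -0.65, -0.63 and -0.50 (adjusted p from 0.021 to 0.044, limma, Benjamini-Hochberg). The calls of Cd44 and Itgav were lost in 7 of 8 fits with a library left out, that of Itga9 in 6, that of Tyrobp in 4 and that of Itgb1 in 3. Mitf, a regulator of Gpnmb, rose by 0.77 (adjusted p = 0.015, limma, Benjamini-Hochberg). Its relatives Tfeb (-0.28) and Tfe3 (-0.29) did not pass, and neither did Csf1 (0.28) and Il34 (0.24), the ligands of the Csf1r receptor. The kinase Syk, the phospholipase Plcg2 and the integrin subunit Itgb3 did not pass either, with values of 0.24, 0.39 and 0.20. Against KO, the libraries labelled AAV had higher Itga9 (0.82, adjusted p = 0.012) and lower Mitf (-0.60, adjusted p = 0.028, limma, Benjamini-Hochberg), and the other 11 did not pass, where 12.8% of all genes were higher and 13.4% lower. The Mitf call was lost in 4 of 8 fits with a library left out (KO 1, KO 2, KO 4 or AAV 1). Against WT, 0 of 13 passed, with a lowest adjusted p of 0.108 for Itgb1 (limma, Benjamini-Hochberg), 2 had an unadjusted p under 0.05, edgeR called 0 and DESeq2 called 1.

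The genes of the mononuclear phagocyte core had lower fitted values in KO than in WT, as most members did. Of 20 genes of the mononuclear phagocyte core, 10 were lower in KO than in WT (limma, Benjamini-Hochberg, adjusted p of 0.05) and 0 higher, the median log2 fold change was -1.31, and 20 of 20 fitted values were negative, where 15.3% of all genes tested were lower. They included the complement genes C1qc (-1.97), C1qa (-1.67) and C1qb (-1.31), the fractalkine receptor Cx3cr1 (-3.54) and the Fc receptor Fcgr3 (-1.47). Without WT 3 the count was 17, and without WT 4 it was 6, and the C1qb call was lost in 7 of 8 fits with a library left out. Against KO, 20 of 20 were positive in AAV with a median of 0.89, but only Cx3cr1 passed, at 3.40 (SE 0.71, adjusted p = 0.011, limma, Benjamini-Hochberg), where 12.8% of all genes tested were higher. The count in AAV against KO was 11 without AAV 3, and edgeR called 6 and DESeq2 10. In KO against WT, edgeR called 11 of these genes and DESeq2 17.

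Of 8 tested genes of monocytes and their recruitment, 6 were lower in KO than in WT (limma, Benjamini-Hochberg), with a median log2 fold change of -1.22, beside the same 15.3% of all genes. They were the chemokines Ccl8 (-2.97), Ccl7 (-1.44), Ccl6 (-0.99), Ccl9 (-0.87) and Ccl2 (-1.53) and the monocyte gene Plac8 (-3.24). The calls of Ccl8 and Plac8 held with each library left out in turn, that of Ccl9 was lost in 7 of these 8 fits, Ccl2 in 6, Ccl7 in 5 and Ccl6 in 4, and without WT 4 or without KO 3, 2 genes passed. Of 9 tested in AAV against KO, Ccl8 alone passed, at 1.99 (adjusted p = 0.033, limma, Benjamini-Hochberg), a share near the 12.8% of all genes that were higher and a call that was lost with the replicate block and without AAV 1, AAV 2, AAV 4, KO 1, KO 2 or KO 4.

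Of 20 further genes of storage and lipid-associated macrophages, 8 were lower and 1 higher in KO than in WT (limma, Benjamini-Hochberg), with a median of -0.85, beside 15.3% and 12.3% of all genes. Muscle fibres also express many of these genes. The lysosomal proteases Ctsb (-1.05) and Ctsl (-0.91), the apolipoprotein gene Apoe (-1.53) and the lysosomal cholesterol carrier Npc2 (-0.81) were lower. Abca1, which exports cholesterol from cells, rose by 1.90 (SE 0.25, adjusted p = 0.0014, limma, Benjamini-Hochberg). In AAV against KO, Ctsb (0.59) and Apoe (0.90) were higher and Abca1 (-1.68) was lower, and 17 of 20 did not pass, where 12.8% of all genes tested were higher and 13.4% lower. The Apoe call there was lost in 6 of 8 fits with a library left out and the Ctsb call in 3. Leaving out WT 3 gave 15 passing genes in KO against WT, and leaving out WT 1 or WT 4 gave 5, and in AAV against KO the count ran from 1 to 8 with a library left out (8 without AAV 3).

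Of 13 tested genes of resident and alternatively activated macrophages, 2 were higher in KO than in WT and 0 lower (limma, Benjamini-Hochberg), a share near the 12.3% of all genes that were higher. The median log2 fold change was 0.45. The count was 1 without WT 1, WT 2, KO 1 or KO 2, with the replicate block and with all 12 libraries in the fit, 5 without WT 3 and 4 by DESeq2. The 2 were Cbr2 (1.12, adjusted p = 0.0087, limma, Benjamini-Hochberg), at 502 ± 147 and 1074 ± 232 normalized counts (SD, n = 4), and Maf (0.45), which muscle fibres also express and whose call was lost in 5 of 8 fits with a library left out. Ccl24 (1.71) and Lyve1 (1.51), genes of resident macrophages, did not pass, with adjusted p of 0.050 and 0.072 (limma, Benjamini-Hochberg). In AAV against KO, Cbr2 alone passed and was lower, at -1.45 (adjusted p = 0.0033, limma, Benjamini-Hochberg), where 13.4% of all genes tested were lower. In AAV against WT, 0 genes passed in any of these 4 macrophage lists by limma with Benjamini-Hochberg adjustment, 4 had an unadjusted p under 0.05, edgeR called 0 and DESeq2 called 1.

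Of 6 tested inflammatory mediators, Tgfb1 (-2.91) and Ptgs2 (-4.23), which encodes the inducible cyclooxygenase, were lower in KO than in WT and higher in AAV than in KO, at 1.63 and 4.07 (adjusted p from 0.0043 to 0.028, limma, Benjamini-Hochberg), where 15.3% of all genes tested were lower in KO than in WT and 12.8% higher in AAV than in KO. Ptgs2 was at 0 in at least 1 library labelled KO, so that its fitted values depend on the count added before the logarithm. The Tgfb1 call in AAV against KO was lost without KO 1, KO 2, KO 4, AAV 1 or AAV 4.

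Markers of other cell types were measured as well. In KO against WT, 3 of 6 endothelial genes were higher (Egfl7 at 1.05, Cdh5 at 1.03 and Pecam1 at 0.91), with summed normalized counts of 2073 to 5050 in WT and 4487 to 6319 in KO, where 12.3% of all genes were higher. The endothelial count was 5 without WT 3 and 1 without WT 2, WT 4, KO 1, KO 2 or KO 3. Of 2 tested genes of the dendritic cell list, Zbtb46 was higher (0.74). Of 8 fibre genes, Myh4 (0.73) and Pygm (0.77) were higher and Myh1 (-1.36) lower, where 27.6% of all genes passed in either direction. The call of Zbtb46 was lost without WT 4 or KO 2. With a library left out, the Myh4 call was lost in 7 of 8 fits, that of Pygm in 3 and that of Myh1 in 2. The number of fibre genes that passed was 0 without WT 4. Of the 3 T cell, 2 B cell, 3 neutrophil, 5 mast cell, 6 fibroblast, 5 adipocyte and 4 satellite cell genes tested, 0 passed by limma with Benjamini-Hochberg adjustment, 7 had an unadjusted p under 0.05, and edgeR and DESeq2 called 2 each. Without WT 3, 1 to 3 genes of each of these lists passed. The median log2 fold changes of these lists lay on both sides of 0, at -0.90 (T cell), -0.31 (satellite cell), 0.0037 (fibroblast), 0.57 (neutrophil), 0.69 (mast cell), 0.95 (B cell) and 1.38 (adipocyte). The highest 4 libraries shared by 7 of the members were also the highest 4 for 2 of 6 fibroblast genes, 1 of 4 satellite cell genes and 0 genes of the other 5 lists. The T cell genes Cd3e, Lck and Il7r summed to at most 39.0 normalized counts in any library, and S100a8 and S100a9 were at 0 in some. In AAV against KO, 1 of 8 fibre genes (Myh1, 1.09) and 1 of 6 endothelial genes (Egfl7, 0.44) passed. So did 1 of 4 satellite cell genes (Pax7, 0.68) and 1 of 5 mast cell genes (Cpa3, -1.12). In each other cell type list 0 passed, beside 26.3% of all genes. In AAV against WT, 1 of 6 endothelial genes (Egfl7, adjusted p = 0.0097) and 1 of 6 fibroblast genes (Pdgfrb, adjusted p = 0.048, limma, Benjamini-Hochberg) passed, both higher. In each other cell type list 0 passed there, beside 1.29% of all genes. With a library left out in turn, the calls in AAV against KO were lost in 7 of 8 fits for Egfl7, 6 for Cpa3, 5 for Pax7 and 1 for Myh1, and those in AAV against WT in 7 for Pdgfrb and 1 for Egfl7. The part of other cell types in the values of the members was not tested.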

How the data were processed

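Quadriceps RNA of 12 mice was grouped by the sample labels. Per the labels and the methods, the authors trimmed reads with Trim Galore 0.4.1, checked them with FastQC 0.11.2, mapped them to GRCm38 with STAR, kept reads with a single mapping location, counted them per gene with HTSeq 0.6.1, dropped genes that never reached 10 reads, and scaled each library by a DESeq2 (1.16.1) size factor. The deposited signal values are these normalized counts. Each was a whole multiple of the value of 1 read (tolerance 0.001, 100% of values in all 12 libraries), which gave whole reads. The values of the libraries labelled KO were identical in both tables, so AAV and WT were compared on 1 scale. The authors also deposited the log2 fold change, its standard error, a test score (the Wald statistic) and p-values of their DESeq2 comparisons, which were not used.

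Groups were compared by limma 3.58.1 (R 4.3.3) with a trend on log2(value + 1), over genes whose highest value in the 8 libraries was at least 10, with Benjamini-Hochberg adjustment. The added 1 makes fold changes of low genes smaller. Alternatives were edgeR 4.0.16 and DESeq2 1.42.0 on recovered reads, a pseudocount of 0.1, no filter, a mean filter, scaling by total reads, all 12 libraries in the fit, the replicate number as a block, each library left out in turn, and, for AAV against WT, WT 2 and AAV 4 left out together. On the recovered reads edgeR called 3979, 4027 and 163 genes in KO against WT, AAV against KO and AAV against WT, where limma called 4097, 3910 and 193. Replicate pairs differed by more than counting noise, and whether the animals shared a batch is not given in the sources used here. Coordinates came from GENCODE M21, with 15186 of 15344 identifiers found, and promoters from RefSeq. Figures used Python 3.11.15 with matplotlib 3.10.9.

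Named were the members, Gaa, all tested partners, up to 4 genes of each other list with the lowest adjusted p in a comparison, and up to 8 genes per score with the most similar pattern. Lyz1, C1qb, Ccl2, Ccl9 in its list and the top-4 pattern were named after their values were seen. The members and lists were chosen with earlier results of these data known.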

Additional observations from a re-analysis of the deposited data

Results flagged for a closer look

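In a group of 4 libraries, a value was noted where its gap to the nearest other library, divided by the range of the group, exceeded the 95% critical value of Dixon's test. This was so in 6 of 33 groups examined, on normalized counts without a logarithm. The groups come from the same 12 libraries and most of the genes ran together. The count therefore cannot be set against the 1 in 20 of independent groups. WT 3 was the lowest of the libraries labelled WT for Csf1r, at 143.7 normalized counts with the next at 272, for Cd68, at 69.8 with the next at 560, and for Lgals3, at 138 with the next at 3348. WT 4 was the highest for Spp1, at 113 with the next at 50.7. Gaa stood apart in WT 2, at 14640 with the next at 460, and in AAV 4, at 9854 with the next at 947.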

How the results depend on the processing

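With the replicate number as a block, 4 members passed in KO against WT in place of 8, and 2 and 0 in the other comparisons as without it. In AAV against KO 2179 genes passed with the block in place of 3910. The numbers stand for different animals and did not pair the libraries: correlations of same-numbered libraries lay between -0.36 and 0.56, and 0, 2 and 4 of 8 libraries correlated best with their own number.

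With 1 library left out in turn, 4 to 9 members and 2347 to 7160 genes passed in KO against WT (9 and 7160 without WT 3), 1 to 3 members and 1961 to 5071 genes in AAV against KO, and 0 members and 18 to 437 genes in AAV against WT. With all 12 libraries in the fit, 1 member passed in AAV against KO. In AAV against WT the main count was 193 genes, and it was 935 by DESeq2 (with 1 member), 127 without the filter, 320 with scaling by total reads, 901 with all 12 libraries and 6 without WT 2 and AAV 4. Signs turned for values that did not pass. In AAV against KO, Spp1 was -0.0857 by edgeR and -0.0779 by DESeq2, and with a library left out Spp1 ranged from -0.28 to 0.41, Csf1r from -0.29 to 0.30, Emr1 from -0.27 to 0.75 and Lyz2 from -0.053 to 0.79. In AAV against WT, Mrc1 was 0.065 with scaling by total reads and from -0.30 to 0.091 with a library left out, and Gaa was -0.34 by edgeR, -0.39 by DESeq2 and from -0.51 to 1.79. The cause was not tested. Scaling by total reads moved the median of all genes by 0.16 in AAV against KO and by 0.15 in AAV against WT. Depth limits Trem2 in the libraries labelled KO, with at most 3 reads.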
